A study of Mus musculus with 4 samples.

Results

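The cells described here were mesenchymal cells of the embryonic mouse parotid gland that held RNA of the paired-box gene Pax1. They were selected on measured counts within the parotid mesenchyme library. A barcode had to show at least 500 genes, at most 10% mitochondrial UMIs (unique molecular identifiers, the tags that count RNA molecules) and at least 2 UMIs of Pdgfra and Col3a1 together. Among these gated cells, those with at least 2 Pax1 UMIs and 0 Tbx18 UMIs were taken, and they are called Pax1 cells below. They numbered 450 of 3557 gated parotid mesenchyme cells, or 12.7% (95% Clopper-Pearson interval 11.6 to 13.8%), and 450 of 15351 barcodes in all libraries. They were set against 2586 gated cells of the same library with 0 Pax1 UMIs, called 0-Pax1 cells.

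The study profiled single cells of the parotid and submandibular glands of ICR mouse embryos at embryonic day 12, with 1 library each for parotid mesenchyme, parotid epithelium, submandibular mesenchyme and submandibular epithelium. Tissues of about 10 glands of each kind were pooled, epithelium was parted from mesenchyme with Dispase II, cells were freed with a cold-active protease, and droplets were made on the 10x Chromium system. The labels name no allele or agent for any group, and neither the embryo nor its sex is recorded for a cell. With 1 library, cells are not replicates, so no test was made; intervals given below cover counting error only. The parotid mesenchyme library held 30815632 UMIs over 4488 barcodes, of which 4421 passed the gene and mitochondrial limits. It shared 12 to 34 barcode sequences with each other library, and 3 Pax1 cells carried such a barcode.

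Pax1 encodes a paired-box transcription factor known in the mouse for the development of the vertebral column, shoulder girdle and thymus, where it marks sclerotome and pharyngeal pouch endoderm. Pax9 is its closest relative, and both are expressed in embryonic craniofacial tissue. Salivary gland mesenchyme derives from cranial neural crest, carries the growth factor receptor Pdgfra, and surrounds the epithelial bud from which ducts and acini form.

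Promoter windows of 4 genes are shown. Pax1 chose the cells, so its level there was fixed by the rule. Its relative Pax9 was low in the chosen cells, and Hoxd1 and Irx3 were high in them. Each runs 5′ to 3′ from 250 bases before the gene's start to 50 bases after it, as RefSeq gives it for GRCm38.p6. Gene coordinates given further below come from another annotation. By that annotation the Pax1, Pax9 and Irx3 windows lie inside the gene, and the Hoxd1 window spans the gene's start. Capitals mark the CCAAT motif, the GC box GGGCGG or the TATA box TATAAA, on either strand.
Pax1: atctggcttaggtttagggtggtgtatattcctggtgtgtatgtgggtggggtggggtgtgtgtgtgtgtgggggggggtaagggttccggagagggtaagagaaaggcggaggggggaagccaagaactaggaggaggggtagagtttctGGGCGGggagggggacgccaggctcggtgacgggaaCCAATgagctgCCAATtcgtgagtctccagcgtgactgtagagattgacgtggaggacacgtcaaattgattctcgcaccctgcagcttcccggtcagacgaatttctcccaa
Pax9: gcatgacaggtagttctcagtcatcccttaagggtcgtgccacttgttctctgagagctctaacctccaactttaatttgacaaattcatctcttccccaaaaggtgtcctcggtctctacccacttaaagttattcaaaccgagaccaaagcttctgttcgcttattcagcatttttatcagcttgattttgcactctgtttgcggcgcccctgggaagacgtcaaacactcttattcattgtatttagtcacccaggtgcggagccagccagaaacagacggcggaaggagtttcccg
Hoxd1: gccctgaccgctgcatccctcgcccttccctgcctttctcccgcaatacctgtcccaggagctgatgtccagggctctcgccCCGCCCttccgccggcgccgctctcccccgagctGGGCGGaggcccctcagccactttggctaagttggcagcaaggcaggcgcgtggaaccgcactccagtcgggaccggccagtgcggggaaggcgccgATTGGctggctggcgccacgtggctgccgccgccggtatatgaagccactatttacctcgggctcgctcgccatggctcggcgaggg
Irx3: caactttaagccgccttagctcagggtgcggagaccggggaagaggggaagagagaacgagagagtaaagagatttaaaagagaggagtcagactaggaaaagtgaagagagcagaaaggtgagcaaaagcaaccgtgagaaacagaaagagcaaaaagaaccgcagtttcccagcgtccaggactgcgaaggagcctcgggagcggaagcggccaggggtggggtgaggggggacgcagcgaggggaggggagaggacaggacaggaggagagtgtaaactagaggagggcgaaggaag
The windows lie at chr2:147364744-147365043 on the plus strand for Pax1, chr12:56695221-56695520 on the plus strand for Pax9, chr2:74762730-74763029 on the plus strand for Hoxd1 and chr8:91801605-91801904 on the minus strand for Irx3. The Pax1 window held 2 CCAAT and 1 GGGCGG, the Hoxd1 window 1 CCAAT and 2 GGGCGG, and the Pax9 and Irx3 windows 0 of either; TATAAA was in none of the 4. Among 32851 promoter windows, 37.4% held CCAAT on either strand, 35.7% held GGGCGG and 13.6% held TATAAA; a match describes the letters and is not a site. G and C made up 57.3% of the Pax1 window, 47.0% of Pax9, 69.7% of Hoxd1 and 56.0% of Irx3, against a median of 52.7% over all windows.

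Pax1 was the value that chose the cells and is given as a description. The 450 cells held 2175 Pax1 UMIs, with a median of 4 and a maximum of 18 per cell. Just inside the threshold lay 125 cells with 2 Pax1 UMIs, and just outside it 229 cells with 1 Pax1 UMI and 0 Tbx18 UMIs. A further 161 cells had at least 2 Pax1 UMIs together with Tbx18, and 131 had 1 Pax1 UMI with Tbx18. The gate itself fixed Pdgfra and Col3a1, which are given as a description: the Pax1 cells had 98 CPM of Pdgfra (CPM, UMIs of a gene scaled to a fixed total per group), against 92.9 CPM in 0-Pax1 cells, and 661 CPM of Col3a1, against 921 CPM in 0-Pax1 cells. Prrx1, a homeobox gene of limb and face mesenchyme that the rule did not use, stood at 387 CPM in Pax1 cells and 452 CPM in 0-Pax1 cells. All 9 listed mesenchyme markers, which include gate genes, were detected in Pax1 cells; of 8 compared, Lum alone passed the size rule given below, being lower, and the median log2 ratio was -0.17.

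Pax1 UMIs were largely a parotid mesenchyme signal. Of gated parotid mesenchyme cells, 971 (27.3%) had at least 1 Pax1 UMI. None of 3661 gated submandibular mesenchyme cells had one (95% Clopper-Pearson interval up to 0.101%). The parotid epithelium library had 0 Pax1 UMIs in its kept barcodes. Kept barcodes of the submandibular epithelium library held 21 and those of the submandibular mesenchyme library 5. Within the parotid mesenchyme library, barcodes of types that should lack Pax1 gave the background. Of 71 erythroid barcodes (at least 20% haemoglobin UMIs), 4 had 1 Pax1 UMI, and of 91 epithelial barcodes 3 did; their median depths were 16904 and 7933 UMIs, and none had 2. Of 218 muscle barcodes 9 had a Pax1 UMI, 2 of them at least 2, at a median depth of 16107 UMIs. Of 59 endothelial barcodes 2 had a Pax1 UMI, 1 of them at least 2, at a median depth of 9030 UMIs. The Pax1 cells included 1 endothelial barcode.

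Pax1 cells were deeper than the cells they were set against, with a median of 6584 UMIs and 2406 genes, against 5452.5 UMIs and 2165.5 genes in 0-Pax1 cells. Mitochondrial UMIs had medians of 3.88% in Pax1 cells and 4.24% in 0-Pax1 cells. Markers of other cell types differed by list. Summed over their lists, epithelial markers reached 2.80 CPM in Pax1 cells and 11.9 CPM in 0-Pax1 cells, and muscle markers 7.15 CPM in Pax1 cells and 53.9 CPM in 0-Pax1 cells. Endothelial markers reached 6.84 CPM in Pax1 cells and 10.7 CPM in 0-Pax1 cells, and neural crest and glia markers 4.35 CPM in Pax1 cells and 6.84 CPM in 0-Pax1 cells. All 5 macrophage markers were at 0 in Pax1 cells, as were the glial genes Sox10 and Foxd3 and the epithelial genes Cdh1, Krt18 and Cldn7. The sum over the neuron list was higher, at 170.4 CPM in Pax1 cells and 112 CPM in 0-Pax1 cells. Nearly all of this sum was Tubb3, a tubulin gene of neurons. Tubb3 had 166 CPM in Pax1 cells and 100.2 CPM in 0-Pax1 cells (1.66-fold, 1.5 to 1.83). Without Tubb3, the sum of the other listed neuron markers was lower in Pax1 cells than in 0-Pax1 cells. The neuronal gene Elavl3 was at 0 in Pax1 cells. The part of neuronal RNA in the results was not tested. Muscle barcodes numbered 1 among the Pax1 cells and 46 among the 0-Pax1 cells. Haemoglobin took 0.109% of UMIs in Pax1 cells and 0.552% in 0-Pax1 cells, and erythroid barcodes numbered 0 among the Pax1 cells and 6 among the 0-Pax1 cells. Without barcodes of 0.5% or more haemoglobin, the log2 ratios were 0.297 for Hba-a2, 0.005 for Hbb-bs and 0.011 for Hbb-y. After thinning each cell to 3000 UMIs, Hba-a1 was detected in 36.2% of Pax1 cells and 35.7% of 0-Pax1 cells.

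A gene was compared where it had at least 50 CPM in the higher group, which left 3054 genes. The size rule of 1.5-fold was passed by 68 genes (2.23%) that were higher in Pax1 cells and by 103 (3.37%) that were lower. At 2-fold, 26 (0.851%) were higher and 49 (1.6%) lower. The median log2 ratio over the 3054 genes was 0.05. These counts include Pax1 and Tbx18, which the rule fixed. The shares of 2.23% higher and 3.37% lower are the background for the counts of listed genes below. Without cells that held a marker UMI of epithelium, muscle, endothelium, macrophages or glia, 70 genes were higher and 112 lower. With 0-Pax1 cells weighted to the depths of the Pax1 cells, 67 were higher and 83 lower. Because Pax1 cells lacked Tbx18 by choice while 0-Pax1 cells included many with it, ratios were also taken against the 1302 cells with neither Pax1 nor Tbx18 UMIs. They are given below where they end a call or move a ratio by over 1.5 times, and for some other genes.

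The 3 highest ratios past the size rule, outside the genes the rule used, were those of homeobox genes. Hoxd1, a gene of the Hox D cluster (GRCm38 chromosome 2, 74762980 to 74765142, plus strand), had 206 UMIs in Pax1 cells, or 64.1 CPM (55.6 to 73.4), against 4.08 CPM (3.15 to 5.19) in 0-Pax1 cells. It was 15.7-fold higher in Pax1 cells (95% interval 11.8 to 21.1) and 13.3-fold higher than in cells with neither gene. Irx5, an Iroquois homeobox gene (chromosome 8, 92357625 to 92376286, plus strand), was at 84.9 CPM in Pax1 cells and 7.71 CPM in 0-Pax1 cells, 11-fold higher (8.86 to 13.7). Its neighbour Irx3 (chromosome 8, 91798525 to 91802067, minus strand) was at 87.1 CPM in Pax1 cells and 11.2 CPM in 0-Pax1 cells, 7.76-fold higher (6.41 to 9.41). Against cells with neither gene the ratios were 7.71 for Irx5 and 4.89 for Irx3. Irx1, of the other Iroquois cluster, was below the 50 CPM limit, at 44.2 CPM in Pax1 cells and 1.5 CPM in 0-Pax1 cells (29.3-fold, 18.9 to 47.3). Of the 13 Iroquois, LIM-homeobox and LIM-only genes listed, 3 were compared, and the third, Lmo4, was lower, with 84.9 CPM in Pax1 cells and 226 CPM in 0-Pax1 cells. Its ratio was 0.376 against 0-Pax1 cells and 0.723 against cells with neither gene.

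UMIs of these homeobox genes were detected in part of the Pax1 cells, and a cell without a UMI may still express the gene at this depth. Irx5 UMIs occurred in 38.7% of Pax1 cells and 3.91% of 0-Pax1 cells, Irx3 in 37.8% of Pax1 cells and 5.53% of 0-Pax1 cells, and Hoxd1 in 16.9% of Pax1 cells and 1.43% of 0-Pax1 cells. At least 1 of Irx3 and Irx5 was seen in 57.1% of Pax1 cells, against 8.39% of 0-Pax1 cells, and both in 19.3% of Pax1 cells, against 1.04% of 0-Pax1 cells. To remove the depth difference, each cell was thinned to 3000 UMIs, which left 447 Pax1 and 2510 0-Pax1 cells. Irx5 was then detected in 19.2% of Pax1 cells and 2.19% of 0-Pax1 cells, and Irx3 in 21.9% of Pax1 cells and 2.71% of 0-Pax1 cells. In thinned erythroid barcodes, which should lack these genes, Irx5 was in 1.41% and Irx3 and Hoxd1 in 0 of 71.

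**Figure D1:**
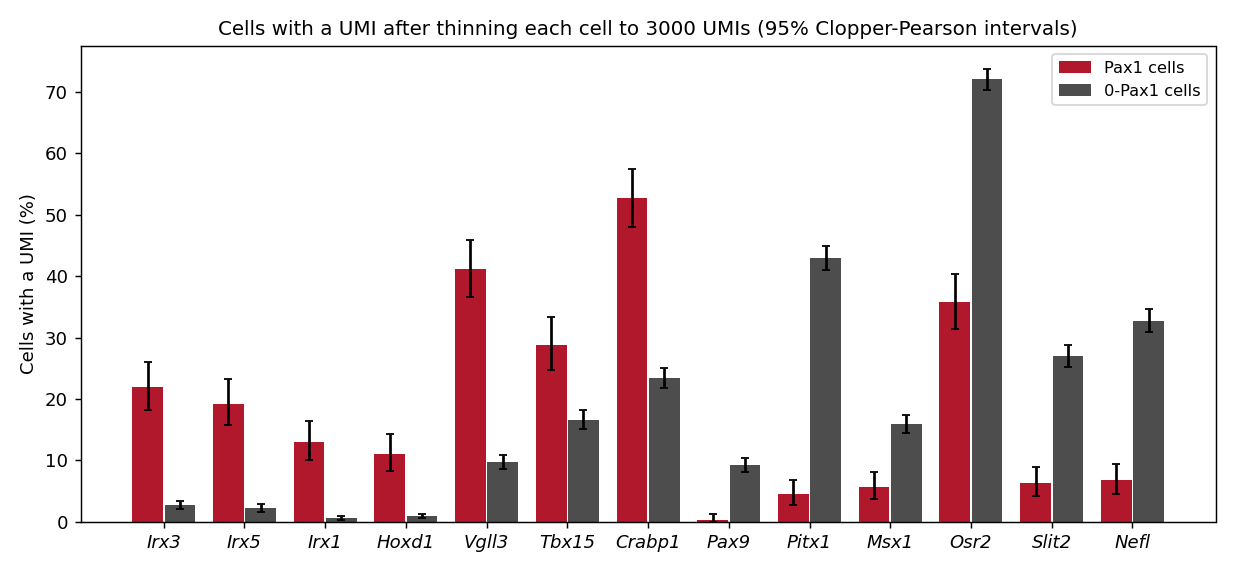
Share of cells with at least 1 UMI of each gene (y axis, percent) after thinning every cell to 3000 UMIs, in Pax1 cells (red) and 0-Pax1 cells (grey); bars are shares and lines 95% Clopper-Pearson intervals. Iroquois genes, Hoxd1, Vgll3, Tbx15 and Crabp1 were more often detected in Pax1 cells, and Pax9, Pitx1, Msx1, Osr2, Slit2 and Nefl less often.

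Other genes high in Pax1 cells encode a cofactor, matrix and signalling proteins. Vgll3, a cofactor of TEAD transcription factors, had 193 CPM in Pax1 cells and 47.1 CPM in 0-Pax1 cells (4.11-fold, 3.69 to 4.57). The short-chain collagen gene Col8a1 had 99.5 CPM in Pax1 cells and 20.4 CPM in 0-Pax1 cells (4.87-fold, 4.16 to 5.7), and the Cdc42 effector gene Cdc42ep3 70.6 CPM in Pax1 cells and 14.2 CPM in 0-Pax1 cells (4.96-fold). Adamtsl1, an ADAMTS-like matrix protein gene, was 3.72-fold higher in Pax1 cells, the glutamate transporter gene Slc1a3 3.26-fold, Fam150b, which encodes a ligand of the receptors Alk and Ltk, 3.24-fold, the sulfotransferase gene Chst2 2.85-fold, and Dtd1, which encodes a D-aminoacyl-tRNA deacylase, 2.72-fold. The secreted axon repellent gene Sema3a had 110.4 CPM in Pax1 cells and 40.9 CPM in 0-Pax1 cells (2.7-fold, 2.36 to 3.07). All 12 of the highest genes had ratios above 2 against cells with neither Pax1 nor Tbx18.

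**Figure D2:**
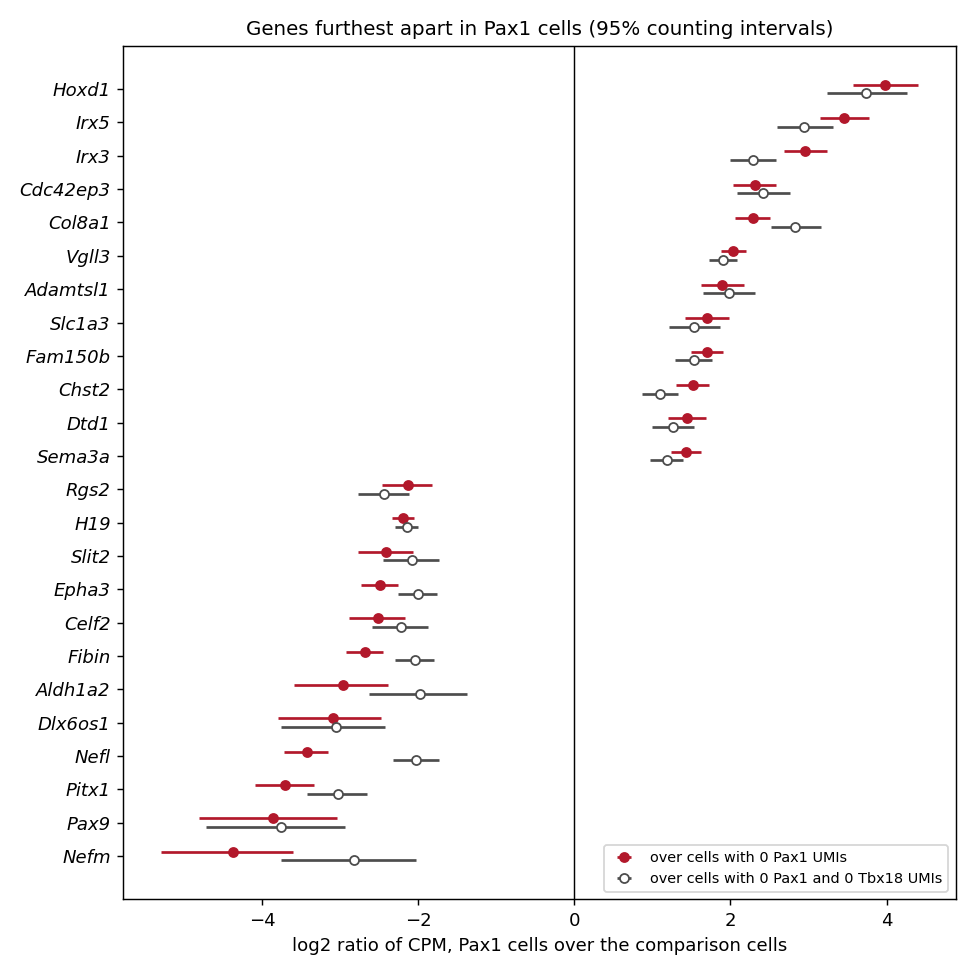
Log2 ratio of CPM in Pax1 cells over 0-Pax1 cells (filled red) and over cells with 0 Pax1 and 0 Tbx18 UMIs (open grey) for the 12 highest and 12 lowest genes past the size rule; lines are 95% counting intervals. Each gene lay on the same side of 0 in both comparisons, and Nefl and Nefm moved furthest toward 0 when Tbx18 cells were left out.

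The genes lowest in Pax1 cells included the relative of Pax1. Pax9 (chromosome 12, 56691767 to 56712822, plus strand) had 12 UMIs in Pax1 cells, or 3.73 CPM (1.93 to 6.52), against 54.2 CPM (50.6 to 57.9) in 0-Pax1 cells, 14.5-fold lower (8.27 to 28.2). Against cells with neither Pax1 nor Tbx18, Pax9 was 13.6-fold lower. Pax9 UMIs were seen in 5 of 450 Pax1 cells (1.11%), against 13.9% of 0-Pax1 cells. The hindlimb and mandible homeobox gene Pitx1 had 19 CPM in Pax1 cells and 247 CPM in 0-Pax1 cells, 13-fold lower (10.1 to 17.1), and 8.17-fold lower against cells with neither gene. Beside these, Xist, the X-inactivation RNA, which differs with the embryos' sex, had 4.04 CPM in Pax1 cells and 25.8 CPM in 0-Pax1 cells, and the Y-linked genes Ddx3y 59.1 CPM in Pax1 cells and 67.8 CPM in 0-Pax1 cells and Eif2s3y 56 CPM in Pax1 cells and 57.4 CPM in 0-Pax1 cells. A part of embryo sex or origin in the Pax9 difference was not tested.

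Neurofilament genes Nefl and Nefm, which build the neuronal cytoskeleton but were read here in mesenchymal cells, were lower in Pax1 cells. Nefl had 33 CPM in Pax1 cells and 356 CPM in 0-Pax1 cells (10.8-fold lower), and Nefm 4.04 CPM in Pax1 cells and 84.3 CPM in 0-Pax1 cells (20.9-fold lower). Cells with Tbx18 carried much of that signal: in Tbx18 cells (at least 2 Tbx18 UMIs, 0 Pax1) Nefl reached 777 CPM. Against cells with neither gene, Nefl was 4.07-fold and Nefm 7.1-fold lower in Pax1 cells, Nefm being under 50 CPM in both groups there. Fibin, a secreted protein gene, was 6.43-fold lower in Pax1 cells (4.14-fold against cells with neither gene), the RNA-binding protein gene Celf2 5.74-fold, and Rgs2, a regulator of G protein signalling, 4.4-fold. Dlx6os1, an RNA from the Dlx5 and Dlx6 locus, was 8.57-fold lower, at 6.53 CPM in Pax1 cells and 55.9 CPM in 0-Pax1 cells; whether strand was used in counting is not given in the sources used here, so its reads cannot be parted from those of overlapping genes.

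The guidance list was divided. Of 10 compared members, 2 (Sema3a and Nrp2) were at least 1.5-fold higher and 4 (Epha3, Slit2, Nrp1 and Sema5a) at least 1.5-fold lower in Pax1 cells, with a median log2 ratio of -0.07, against 0.05 over all genes. The Sema3 receptor gene Nrp2 had 120.0 CPM in Pax1 cells and 44.8 CPM in 0-Pax1 cells, while its relative Nrp1 had 28.9 CPM in Pax1 cells and 61.4 CPM in 0-Pax1 cells. The ephrin receptor gene Epha3 had 47.3 CPM in Pax1 cells and 267 CPM in 0-Pax1 cells (5.65-fold lower, 4.81 to 6.69). Slit2, a secreted Robo ligand gene, had 22.1 CPM in Pax1 cells and 118 CPM in 0-Pax1 cells (5.33-fold lower, 4.2 to 6.85). The calls of Nrp1 and Sema5a ended against cells with neither Pax1 nor Tbx18, with ratios of 0.886 for Nrp1 and 0.985 for Sema5a.

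Among transcription factors of pharyngeal arch patterning, 15 of 31 were compared. Of these, 2 (Twist2 and Pou3f3) were at least 1.5-fold higher and 6 (Pitx1, Msx1, Dlx5, Lhx8, Nr2f2 and Shox2) at least 1.5-fold lower in Pax1 cells. Their median log2 ratio was -0.23, against 0.05 over all genes, of which 2.23% were higher and 3.37% lower. The helix-loop-helix gene Twist2 had 264 CPM in Pax1 cells and 104 CPM in 0-Pax1 cells (2.55-fold). Msx1, a homeobox gene of growing facial mesenchyme, had 29.2 CPM in Pax1 cells and 110.0 CPM in 0-Pax1 cells (3.76-fold lower), the LIM-homeobox gene Lhx8 141 CPM in Pax1 cells and 337 CPM in 0-Pax1 cells, and the distal-less gene Dlx5 70.0 CPM in Pax1 cells and 175 CPM in 0-Pax1 cells. The calls of Nr2f2 and Shox2 ended against cells with neither Pax1 nor Tbx18: Nr2f2 was 1.71-fold lower against 0-Pax1 cells and 1.3-fold lower against those, and Shox2 1.51-fold and 1.42-fold lower. Gsc, the goosecoid homeobox gene, went the other way below the 50 CPM limit, at 32.3 CPM in Pax1 cells and 11 CPM in 0-Pax1 cells. Both odd-skipped genes compared were lower in Pax1 cells: Osr2 at 204 CPM, against 619 CPM in 0-Pax1 cells, and Osr1 at 199.9 CPM, against 319 CPM in 0-Pax1 cells. Osr2 was 3.03-fold lower against 0-Pax1 cells and 1.9-fold lower against cells with neither gene. The HOX genes Hoxa2, Hoxa3, Hoxb2, Hoxb3 and Hoxd3 had 0 UMIs in Pax1 cells, where the 95% Poisson interval for 0 UMIs reaches 1.15 CPM.

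Pax1 partners known from the sclerotome of the mouse were mostly low or missing. Of 14 listed genes, 10 were detected in Pax1 cells and 2 were compared, Pax9 and the homeobox gene Meox2, both lower. Meox2 had 104 CPM in Pax1 cells and 185 CPM in 0-Pax1 cells, and 293 CPM in cells with neither Pax1 nor Tbx18. Nkx3-2, Uncx, Foxc1 and Foxc2 had 0 UMIs in Pax1 cells. Cartilage genes stayed under the comparison limit: none of the 13 listed genes in the files reached 50 CPM in either group. Col2a1, the main cartilage collagen gene, had 22.1 CPM in Pax1 cells and 14.6 CPM in 0-Pax1 cells (1.51-fold, 1.14 to 1.98). The collagen gene Col11a1 had 25.8 CPM in Pax1 cells and 28.8 CPM in 0-Pax1 cells.

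Signalling genes differed in both directions. Among genes of retinoic acid handling, the cytoplasmic binding protein gene Crabp1 had 351 CPM in Pax1 cells and 138 CPM in 0-Pax1 cells (2.54-fold, 2.36 to 2.73). Aldh1a2, whose enzyme makes retinoic acid, was at 7.77 CPM in Pax1 cells and 60.5 CPM in 0-Pax1 cells (7.78-fold lower), and Crabp2 at 299 CPM in Pax1 cells and 482 CPM in 0-Pax1 cells (1.61-fold lower). Both calls ended against cells with neither Pax1 nor Tbx18: Aldh1a2 was 3.93-fold lower but under 50 CPM in both groups, at 30.5 CPM in those cells, and Crabp2 was 1.32-fold lower. Aldh1a2 was at 115 CPM in Tbx18 cells. The retinol uptake receptor gene Stra6 had 4 UMIs in Pax1 cells and 343 in 0-Pax1 cells.

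Of 4 compared genes of BMP and TGF-beta signalling, Id2 was higher in Pax1 cells and Id1 and Id3 lower, with a median log2 ratio of -0.66. Id2, an inhibitor of helix-loop-helix factors, had 232 CPM in Pax1 cells and 125 CPM in 0-Pax1 cells, while Id1 had 149 CPM in Pax1 cells and 284 CPM in 0-Pax1 cells and Id3 258 CPM in Pax1 cells and 462 CPM in 0-Pax1 cells. Ligand and antagonist genes were under 50 CPM: Bmp4 had 5.29 CPM in Pax1 cells and 24.7 CPM in 0-Pax1 cells, Bmp2 15.9 CPM in Pax1 cells and 48.5 CPM in 0-Pax1 cells, the antagonist gene Fst 2.49 CPM in Pax1 cells and 30.7 CPM in 0-Pax1 cells, and the ligand gene Gdf10 21.1 CPM in Pax1 cells and 2.57 CPM in 0-Pax1 cells. Fst was 12.4-fold lower against 0-Pax1 cells and 5.07-fold lower against cells with neither gene, and Gdf10 8.22-fold and 4.75-fold higher. The FGF feedback genes Dusp6 (21.1 CPM in Pax1 cells, 67 CPM in 0-Pax1 cells) and Spry2 (41 CPM in Pax1 cells and 85.1 CPM in 0-Pax1 cells) made up 2 of 4 compared FGF genes and were both lower. Of 4 compared WNT ligand and inhibitor genes, the inhibitor gene Dkk2 alone passed the size rule and was 3.17-fold lower in Pax1 cells. Dkk2 was at 281 CPM in Tbx18 cells, and against cells with neither gene it was 1.65-fold lower. Sfrp4, a secreted WNT inhibitor gene, had 70 UMIs in Pax1 cells and 4 UMIs in 0-Pax1 cells.

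Growth and matrix genes were mostly level or lower. Of 12 compared insulin-like growth factor and imprinted genes, 4 (H19, Igf2, Cdkn1c and Dlk1) were at least 1.5-fold lower in Pax1 cells and 0 higher. The median log2 ratio was -0.48. Over all compared genes it was 0.05, with 2.23% higher and 3.37% lower. The imprinted RNA H19 had 129 CPM in Pax1 cells and 592 CPM in 0-Pax1 cells (4.58-fold lower, 4.15 to 5.06), and the cyclin kinase inhibitor gene Cdkn1c 1027 CPM in Pax1 cells and 1948 CPM in 0-Pax1 cells. Against cells with neither Pax1 nor Tbx18, H19 was 4.43-fold and Cdkn1c 1.22-fold lower, which ended the call of Cdkn1c. Of 15 compared interstitial matrix genes, Col6a1 and Col6a2 were lower in Pax1 cells and 0 higher (median log2 ratio -0.08). Both calls ended against cells with neither Pax1 nor Tbx18: Col6a1 was 2.02-fold lower against 0-Pax1 cells and 1.21-fold lower against those, and Col6a2 1.83-fold and 1.21-fold lower. Col6a1 was at 165 CPM in Tbx18 cells. Of 9 compared small proteoglycan genes, Ogn was higher (60.6 CPM in Pax1 cells, 32.2 CPM in 0-Pax1 cells), and Lum, Bgn and the keratocan gene Kera were lower. Against cells with neither gene, Kera kept its call at 2.58-fold lower, and the others lost theirs: Ogn was 1.17-fold higher (0.982 to 1.39), Lum 1.16-fold lower and Bgn 1.46-fold lower.

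The list of 12 genes taken as parotid mesenchyme genes, which was drawn from earlier results on these libraries, split within the library. Pax1, Vgll3, Pantr1, Tbx15 and Pou3f3 were at least 1.5-fold higher in Pax1 cells, and Pax9, Tbx18, Msx1, Rprm and Chodl at least 1.5-fold lower. The long noncoding RNA Pantr1, which lies beside the POU factor gene Pou3f3, had 2445 CPM in Pax1 cells and 1181 CPM in 0-Pax1 cells (2.07-fold, 2.02 to 2.13), and Pou3f3 had 152 CPM in Pax1 cells and 95.4 CPM in 0-Pax1 cells (1.6-fold). The T-box gene Tbx15 had 115 CPM in Pax1 cells and 63.4 CPM in 0-Pax1 cells, 1.81-fold higher, and 2.7-fold higher than in cells with neither Pax1 nor Tbx18. The chemokine gene Cxcl14, at 692 CPM in Pax1 cells and 464 CPM in 0-Pax1 cells, was 1.49-fold higher, just under the size rule, but 2.05-fold higher against cells with neither gene. Lef1, a WNT effector gene, changed side: 0.808-fold against 0-Pax1 cells and 1.57-fold against cells with neither gene.

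Levels were also read over classes of Pax1 UMIs (0, 1, 2, 3 to 4, and 5 or more) among cells with 0 Tbx18 UMIs, which held 1302, 229, 125, 136 and 189 cells. Over these classes Irx5 had 11, 26.8, 58.3, 74.3 and 108 CPM. Hoxd1 had 4.82, 26.8, 38.9, 49.2 and 89.1 CPM over the same classes. Both were highest in the class with most Pax1 UMIs, while Irx3 (17.8, 35.7, 59.4, 93.9 and 99.6 CPM) did not differ beyond counting error between the 2 highest classes. Pax9 had 50.7, 15.1, 11.4, 1.09 and 0.702 CPM and Pitx1 155, 89.3, 37.7, 13.1 and 11.2 CPM, the lowest values being in cells with 5 or more Pax1 UMIs. Each of the 2 highest classes held 1 Pax9 UMI. Vgll3 had 51.7, 159, 141, 237 and 198 CPM and Tbx15 42.5, 116, 99.4, 141 and 107 CPM, so both were already high in cells with 1 Pax1 UMI. Median depth over the classes was 5390.5, 5923, 6608, 6247.5 and 6913 UMIs, and its part in these orders was not tested.

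**Figure D3:**
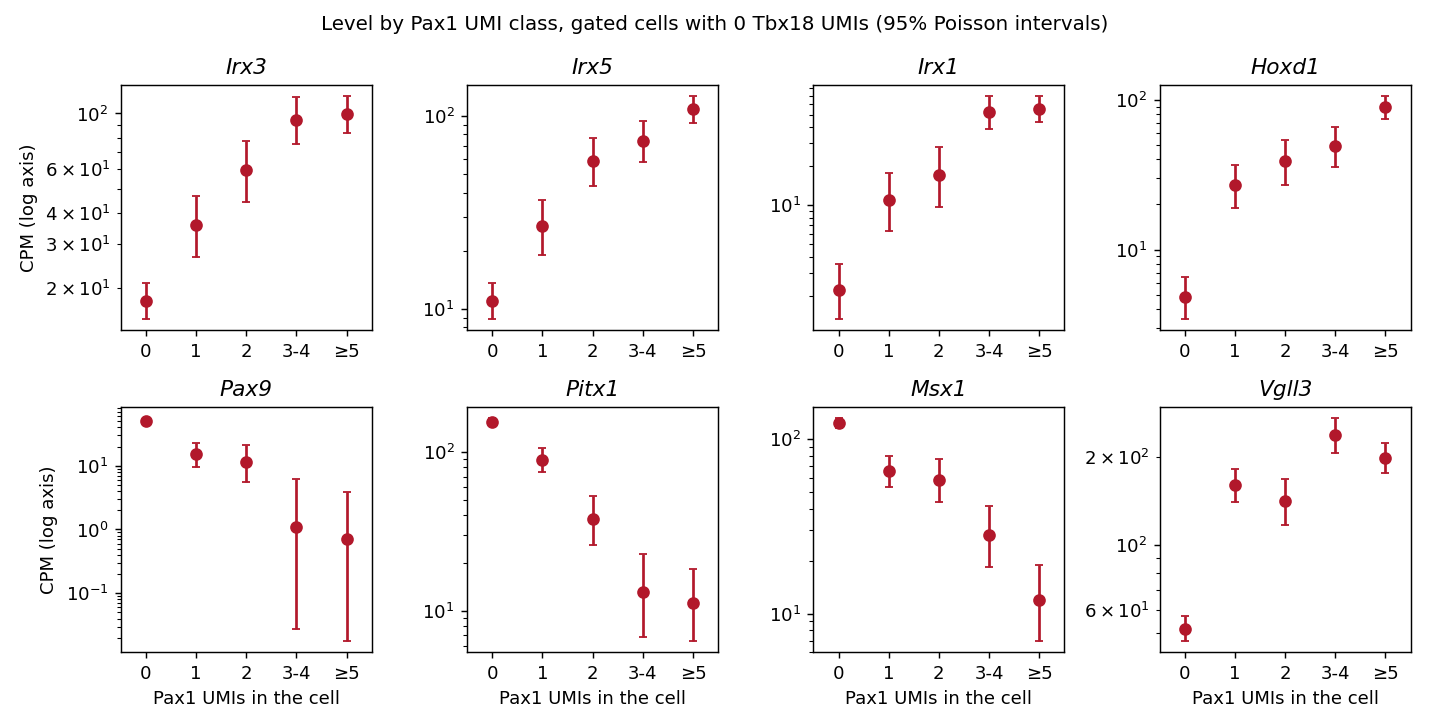
CPM (y axis, log scale, own range in each panel) of 8 genes over classes of Pax1 UMIs per cell (x axis) among gated parotid mesenchyme cells with 0 Tbx18 UMIs; points are summed levels and lines 95% Poisson intervals. The Iroquois genes and Hoxd1 stood higher, and Pax9, Pitx1 and Msx1 lower, in classes with more Pax1 UMIs.

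Pax1 cells were compared with their neighbours by the same size rule. Cells with at least 2 Pax1 UMIs and Tbx18 had Pantr1 and Vgll3 at similar levels. Pantr1 had 2445 CPM in Pax1 cells and 2470.1 CPM in cells with both, and Vgll3 had 193 CPM in Pax1 cells and 215 CPM in cells with both. Irx5 stood at 84.9 CPM in Pax1 cells, 59.6 CPM in cells with both, 2.21 CPM in Tbx18 cells and 4.38 CPM in cells with Msx1 and Lef1 but no Pax1. Pax9 was highest in the cells with Msx1 and Lef1: it had 3.73 CPM in Pax1 cells, 1.7 CPM in cells with both Pax1 and Tbx18, 51.5 CPM in Tbx18 cells and 202 CPM in cells with Msx1 and Lef1. Counting genes, Pax1 cells had 42 higher and 75 lower than cells with both Pax1 and Tbx18 (161 cells, 3100 genes compared). They had 100 higher and 182 lower than Tbx18 cells (893 cells, 3153 genes compared). Against cells with Msx1 and Lef1 (193 cells, 3109 genes compared), 147 were higher and 143 lower. The groups differed in size, and the part of size in these counts was not tested. Against gated submandibular mesenchyme, 361 were higher and 361 lower (3661 cells, 3287 genes compared). That is a separate library, in which gland and library cannot be told apart. There Pantr1 was at 0.361 CPM, Tbx15 at 1.49 CPM and Pitx1 at 595 CPM.

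**Figure D4:**
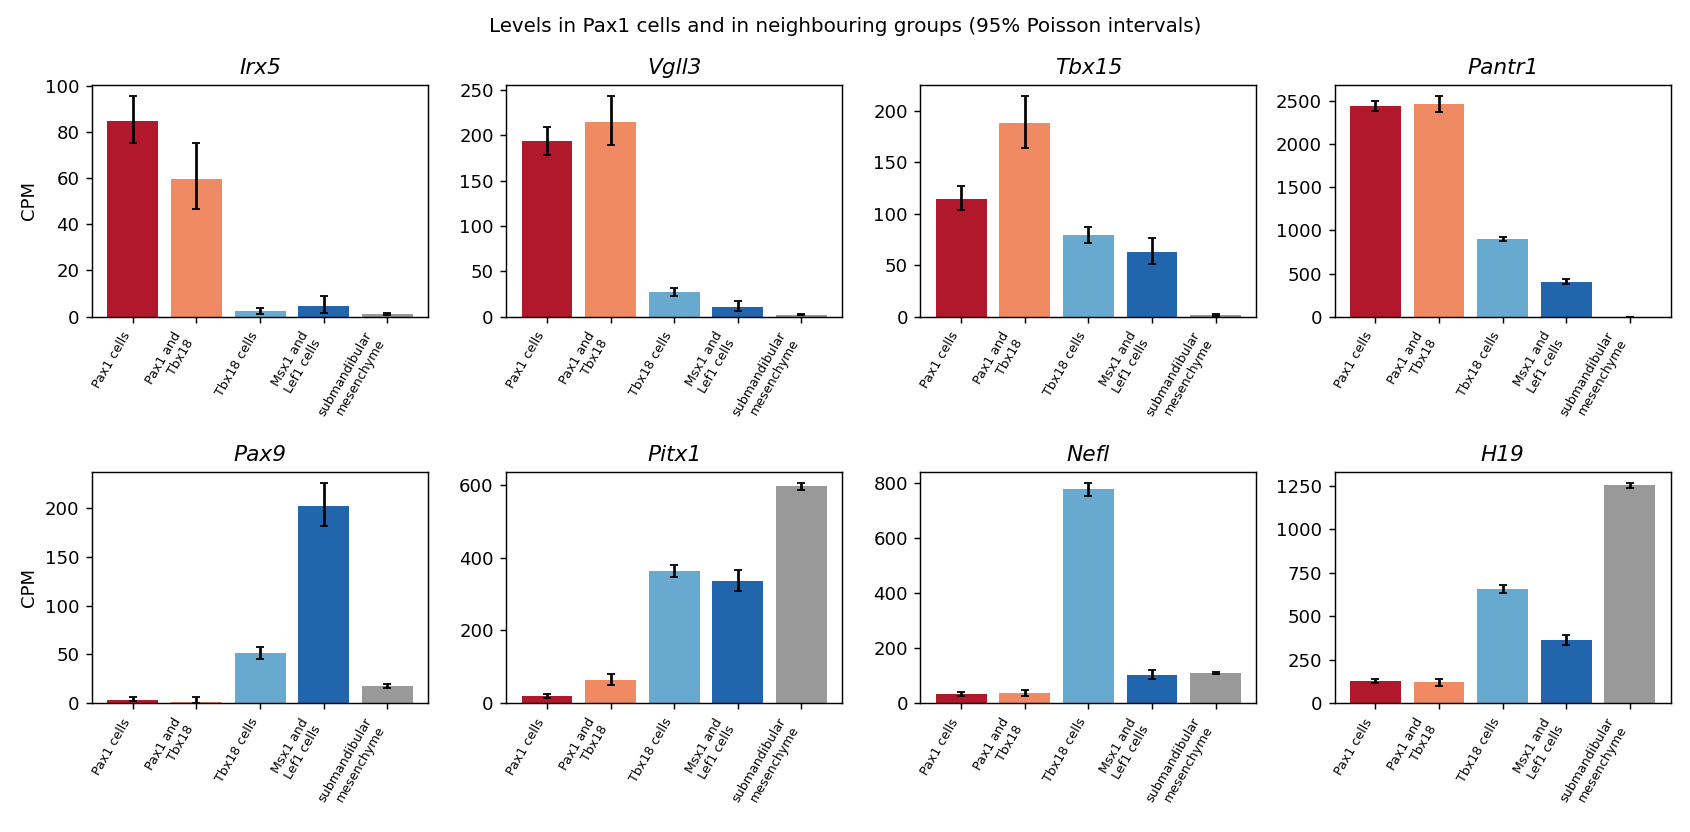
CPM of 8 genes (y axis, own range in each panel) in Pax1 cells, cells with Pax1 and Tbx18, Tbx18 cells, cells with Msx1 and Lef1, and gated submandibular mesenchyme; bars are summed levels and lines 95% Poisson intervals. Irx5, Vgll3 and Pantr1 were high in both groups with Pax1, Nefl in Tbx18 cells, and Pax9 in cells with Msx1 and Lef1.

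Pax1 cells did not form 1 cluster. In a clustering of the gated cells made without Pax1 and Tbx18, cluster 3 of 16 held 147 Pax1 cells, or 32.7% of them, and they were 45.8% of that cluster. Cluster 12 held 52 Pax1 cells and cluster 13 held 34. Clusters led by genes of DNA replication and mitosis held 65 (cluster 6), 49 (cluster 9) and 47 (cluster 2), and cluster 8 held 24. Cluster 7, led by Stmn2, Nefm and Nefl, held 0 of 286, and cluster 5, led by Pax9 and Xist, 1 of 293.

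Since the clusters were made from these genes, the levels within them describe the cells and test nothing. Pax1 cells of cluster 3 had 128 CPM of Hoxd1, 117 CPM of Irx5 and 278 CPM of Vgll3. Those of cluster 12 had the most Irx1 (162 CPM), Col8a1 (379 CPM) and Vgll3 (405 CPM) of the 7 clusters with at least 20 Pax1 cells. Those of cluster 13, which was led by Gdf10, Six2 and Frzb, had the most Irx3 (225 CPM) but 0 UMIs of Hoxd1, Irx1 and Vgll3, little Tbx15 (4.1 CPM) and Cxcl14 (24.6 CPM), and 2743 CPM of the lactate dehydrogenase gene Ldha. Pax1 itself was between 385 CPM in cluster 8 and 998 CPM in cluster 12.

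**Figure D5:**
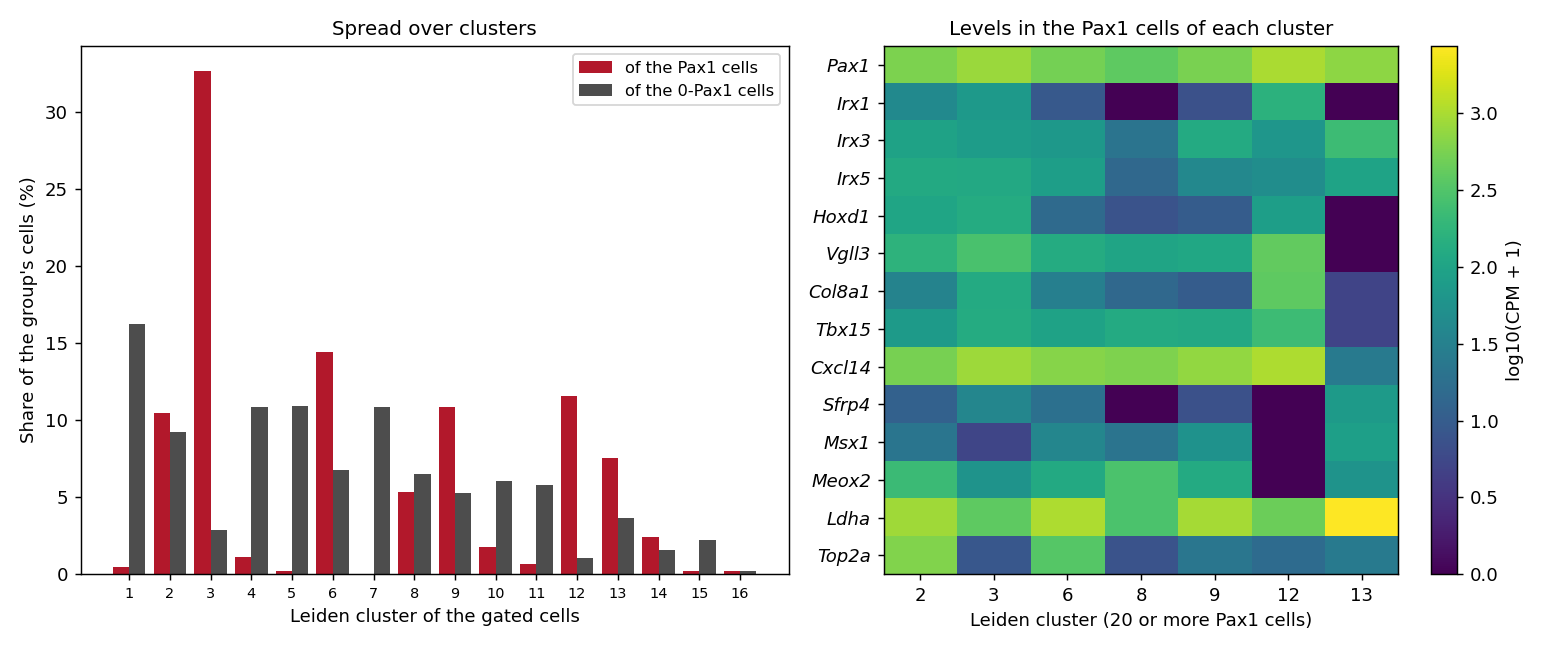
Left, share of the Pax1 cells (red) and of the 0-Pax1 cells (grey) in each of 16 clusters (y axis, percent). Right, log10(CPM + 1) of 14 genes in the Pax1 cells of the 7 clusters with at least 20 of them; the Pax1 cells of cluster 13 had 0 UMIs of Hoxd1, Irx1 and Vgll3, which those of cluster 3 and cluster 12 held.

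Cells outside the gate gave a second set that the rule did not use, from the same library. Of kept barcodes with fewer than 2 Pdgfra and Col3a1 UMIs, 72 had at least 2 Pax1 and 0 Tbx18 UMIs and 720 had 0 Pax1 UMIs. Irx5 had 70.7 CPM in the ungated Pax1 barcodes and 19.2 CPM in those without Pax1. Irx3 had 139 CPM in the ungated Pax1 barcodes and 27.1 CPM in those without. Crabp1 had 261 CPM in the Pax1 barcodes and 33.6 CPM in those without Pax1, and Sema3a had 174 CPM with Pax1 and 20.9 CPM without. Pitx1 was lower again, at 4.04 CPM with Pax1 and 61.4 CPM without. Vgll3 did not part the ungated barcodes, at 52.5 CPM with Pax1 and 51.5 CPM without. Of the 12 highest genes, 12 lay the same way in this set, 11 of them beyond the counting interval. Mesenchyme genes not called in the gated comparison were also higher here, such as Prrx1 (ratio 3.66) and Col1a1 (ratio 3.16). The share of all genes with a ratio above 1 in this set is not given, so the tally does not set the 12 apart. Of the 12 lowest, 9 lay the same way, 5 of them beyond the interval, and Aldh1a2, Epha3 and Rgs2 lay the other way within their intervals. Other genes that were lower in gated Pax1 cells were higher here, with ratios of 2.98 for Lum, 2.89 for Dlx5 (2.2 to 3.75), 1.92 for Kera, 1.26 for Osr2 and 1.25 for Osr1; the intervals of Osr2 and Osr1 held 1. Chodl, Rprm, Lmo4, Spry2 and Bgn also had ratios above 1 here, but each of their intervals held 1. Meox2 lay the other way as well, at 179.8 CPM with Pax1 and 74.9 CPM without. The ungated barcodes without Pax1 include other cell types, and the part of those types in these values was not tested.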

How the data were processed

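Cells of 4 libraries, 1 per group, were compared as deposited. The deposited values are whole-number UMI counts per gene and barcode for 27998 genes, not normalized; per the submitters' processing notes they were made with Cell Ranger 2.1.1 and mm10. Coordinates came from a GRCm38 annotation that matched 27645 gene identifiers. Members, lists and rules were chosen with earlier results of these data known.

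Counts were summed over the cells of a group and scaled to CPM, with exact Poisson intervals. For shares of cells the Clopper-Pearson interval was used and for ratios the exact conditional binomial one, each at 95% and for counting error only; a group at 0 was set to 3 UMIs. The size rule asked for a ratio of 1.5 or more and for 50 CPM in whichever group was higher. The 12 highest and 12 lowest ratios were named, with up to 4 members of each of 38 lists (at least 20 CPM); members past the size rule named beyond these were chosen after their values were seen. Haemoglobin, mitochondrial, ribosomal and sex-linked genes, unnamed models and likely free RNA stayed out of the top genes. Of 488 listed symbols, 2 were not matched, and some listed genes are not reported here. Shares of cells were also read after thinning to 3000 UMIs. Clusters used 2000 variable genes, 30 components, 15 neighbours and Leiden resolution 0.8. Doublets were not called; an alternative left out the deepest 5% of barcodes. Tools were Python 3.11.15, numpy 2.4.6, scipy 1.17.1, pandas 2.3.3, scanpy 1.11.5, igraph 0.11.9 and edgeR 4.0.16, used for TMM factors alone. Scripts were tested on simulated data. Other alternatives changed the scaling, the CPM limit, the fold, the comparison cells, the Pax1 and Tbx18 thresholds, the gate, the barcode filter, the weight of cells, the cell cycle and, chosen after seeing the data, haemoglobin.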

Additional observations from a re-analysis of the deposited data

Results flagged for a closer look

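In the submandibular epithelium library, which no comparison used, 16 of 3746 kept barcodes outside the gate had a Pax1 UMI (0.427%, Clopper-Pearson interval 0.244 to 0.693%). A count of 3 barcodes would be 0.0801%. They held 21 Pax1 UMIs, and 4 of them had at least 2. The submandibular mesenchyme library had 3 such barcodes of 1181, and the parotid epithelium library 0 of 1844.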

How the results depend on the processing

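No paired analysis was possible because each group had 1 library. The 68 genes higher and 103 lower in Pax1 cells became 161 and 235 with a limit of 20 CPM, 35 and 58 with 100 CPM, and 26 and 49 at 2-fold. Under the other 13 settings, higher genes numbered 53 to 97 and lower genes 80 to 131. Against cells with 0 Pax1 and 0 Tbx18 UMIs, 90 were higher, 59 of them among the 68, and 83 lower, 67 of them among the 103. The share of gated cells, 12.65%, was 9.137% at 3 or more Pax1 UMIs, 19.09% at 1 or more, 17.18% with any Tbx18, 13.96% with the stricter barcode filter and 15.04% with Pdgfra and Col3a1 both detected. The share of Pax1 cells in their leading cluster was 32.67% at resolution 0.8, 54.89% at 0.4 and 22.0% at 1.6, since clusters are fewer at 0.4 and more at 1.6. Of 1520 ratios of 117 named genes over 13 settings, 1230 stayed within the main counting interval, 285 left it and 5 reversed. Ratios that left it were most numerous among cells with 0 UMIs of 5 cycle genes, at 53 of 116. Against cells with 0 Pax1 and 0 Tbx18 UMIs, 52 of 117 left it, and under each other setting 0 to 29 did. The reversed ones were haemoglobin log2 ratios: Hba-a2 0.391 and Hbb-y 0.392 without the deepest 5% of barcodes, and Hba-a2 0.297, Hbb-bs 0.005 and Hbb-y 0.011 without barcodes of 0.5% or more haemoglobin; the cause was not tested. Depth is known only as UMIs per barcode, and animals, litters and dissections could not be compared.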

Other observations

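Proliferation genes stood slightly higher in Pax1 cells, and depth moved with them. Of 15 compared genes of the G2 and M phases, 0 passed the size rule and the median log2 ratio was 0.43, against 0.05 over all genes; for 14 compared S phase genes it was 0.12, again with 0 past the rule. The mitotic kinase gene Cdk1 had 192 CPM in Pax1 cells and 140 CPM in 0-Pax1 cells, and the survivin gene Birc5 had 297 CPM in Pax1 cells and 209 CPM in 0-Pax1 cells. When 0-Pax1 cells were weighted to the depths of the Pax1 cells, the medians were 0.07 for G2 and M phase genes and -0.06 for S phase genes. Of 8 compared glycolysis and hypoxia genes, 2 were at least 1.5-fold higher in Pax1 cells: the lactate dehydrogenase gene Ldha at 827 CPM, against 456 CPM in 0-Pax1 cells, and the phosphofructokinase gene Pfkl at 124 CPM, against 77.2 CPM in 0-Pax1 cells. Against cells with 0 Pax1 and 0 Tbx18 UMIs, the ratio of Ldha was 1.41 and that of Pfkl 1.32. Ldha was uneven within the Pax1 cells. It had 385 CPM in those of cluster 3, the leading cluster, 292 CPM in cluster 8 and 457 CPM in cluster 12. In clusters 2, 6 and 9 it had 875, 1049 and 934 CPM, and in cluster 13 2743 CPM.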
